A study of Mus musculus with 2 samples.

Results

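The insulin-like growth factor (IGF) axis was followed in regenerating muscle through 10 genes, matched by symbol among the 32285 genes listed for each library. They were the ligands Igf1 and Igf2, the receptors Igf1r and Igf2r, the binding proteins Igfbp3, Igfbp4, Igfbp5 and Igfbp7, and the adaptors Irs1 and Irs2. All 10 were found. The mice, all male and 16 to 20 weeks old, had chronic kidney disease. Their femoral artery had been tied 5 days before nuclei were taken from the tibialis anterior, a muscle of the shin. AHRfl/fl mice carry Ahr alleles (AHRtm3.1Bra/J) with recombination sites, and in AHRmKO mice the gene is deleted in skeletal muscle. Ahr encodes the aryl hydrocarbon receptor, a ligand-activated transcription factor. The label of both groups also names the transgene Tg(ACTA1-cre/Esr1*)2Kesr/J, an inducible Cre recombinase under a skeletal actin promoter that is active in muscle fibres. There was 1 library per group. The number of mice behind each, the way kidney disease was induced and any dosing to activate the Cre are not given in the sources used here. With 1 library per group no difference between the groups could be tested, so every interval below covers counting error only and a difference is one between these 2 libraries.

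IGF1 and IGF2 are secreted peptides that act through the receptor tyrosine kinase IGF1R, whose signal is carried by the adaptors IRS1 and IRS2 to phosphoinositide 3-kinase, AKT and mTOR. IGF2R binds IGF2 without a growth signal and delivers it to lysosomes, and it also transports mannose-6-phosphate tagged enzymes. The binding proteins hold IGFs in the extracellular space and can prolong or limit their action. In injured muscle, IGF1 from macrophages and IGF2 from differentiating myoblasts are known to support growth and fusion.

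Igf1 lies at chr10:87858265-87937042 on the plus strand, Igf2 at chr7:142650766-142666816 on the minus strand, Igf1r at chr7:67952827-68233668 on the plus strand and Igf2r at chr17:12682406-12769664 on the minus strand (GRCm38, the build to which the mm10 of the processing notes corresponds). Igfbp3 lies at chr11:7206086-7213923, Igfbp4 at chr11:99041244-99054392, Igfbp5 at chr1:72857932-72874884 and Igfbp7 at chr5:77349240-77408041. Irs1 lies at chr1:82233101-82291416 and Irs2 at chr8:10984681-11008458. The opposite-strand transcript Airn overlaps 28354 bases, or 32.5%, of Igf2r. Igf2os overlaps 44.4% of Igf2 and Igf1os overlaps 5117 bases of Igf1. Whether the authors' counting used the strand of a read is not given in the sources used here. The values of Igf2r, Igf1, Igf2, Igfbp7, Irs1 and Irs2 are therefore uncertain with respect to these partners.

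Because the mice differ in Ahr, the 250 bases before each RefSeq transcription start listed for a member were searched for the core of the AHR response element, GCGTG, on both strands. At least 1 match was present in 7 of the 13 member windows (Igf2 has 4), against 28.2% of all 32851 windows in the RefSeq promoter table (GRCm38.p6) and 53.9% of the 9178 windows with a GC content of 60% or more. The member windows mix both kinds. Those of Igf1 (52.8%), Igfbp5 (58.8%) and some of Igf2 (47.6% and 50.8%) lie under 60%, so neither share is an exact counterpart. Igf1r had 3 matches, Igf2r and Igfbp3 had 2 each, and Igf1, Igfbp7, Irs1 and Irs2 had 1 each. The windows of Igf2, Igfbp4 and Igfbp5 held none. RefSeq starts can differ from the gene bounds above: the Igf1 window lies inside the gene as annotated by GENCODE, and the Igf1r window ends before the GENCODE start. A match is a description of these letters, not a bound site. The 4 genes shown are ones on which the results below turn, printed 5′ to 3′ on the strand of the gene, with GCGTG or its complement CACGC in capitals. They are the ligand of macrophage-like nuclei (Igf1), the gene lower in 6 classes (Igf2r), an adaptor higher in 2 classes (Irs2), and a binding protein without a match (Igfbp5).
Igf1, chr10:87860861-87861110, plus strand: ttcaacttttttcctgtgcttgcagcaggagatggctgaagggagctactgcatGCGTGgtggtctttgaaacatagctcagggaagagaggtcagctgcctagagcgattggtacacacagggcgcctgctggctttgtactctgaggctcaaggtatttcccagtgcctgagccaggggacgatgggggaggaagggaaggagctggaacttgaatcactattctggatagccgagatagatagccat
Igf2r, chr17:12769707-12769956, minus strand: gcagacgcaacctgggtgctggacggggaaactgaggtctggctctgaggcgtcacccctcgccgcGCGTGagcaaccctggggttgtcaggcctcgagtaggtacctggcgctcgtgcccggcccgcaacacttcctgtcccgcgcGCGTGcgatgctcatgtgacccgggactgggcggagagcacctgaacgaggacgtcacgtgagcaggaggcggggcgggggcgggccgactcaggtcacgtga
Irs2, chr8:11008930-11009179, minus strand: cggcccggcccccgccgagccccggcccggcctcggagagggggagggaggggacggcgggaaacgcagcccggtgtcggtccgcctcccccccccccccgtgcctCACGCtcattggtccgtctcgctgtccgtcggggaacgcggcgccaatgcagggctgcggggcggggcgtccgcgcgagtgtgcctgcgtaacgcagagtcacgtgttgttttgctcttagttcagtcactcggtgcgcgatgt
Igfbp5, chr1:72874866-72875115, minus strand: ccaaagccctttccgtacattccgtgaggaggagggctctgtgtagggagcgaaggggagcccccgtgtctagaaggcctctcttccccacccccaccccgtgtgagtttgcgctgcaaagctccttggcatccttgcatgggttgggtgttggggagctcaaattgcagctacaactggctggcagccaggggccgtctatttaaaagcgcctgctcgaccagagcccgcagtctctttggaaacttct

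The AHRfl/fl library held 151788328 UMIs (unique molecular identifiers, 1 per captured RNA molecule) and gave 15832 nuclei, and the AHRmKO library held 113737134 UMIs and gave 6454. Median depth was 3670 and 3725 UMIs per nucleus, and 27 barcodes occurred in both libraries. The median mitochondrial share was 0.820% and 2.01%. As likely doublets 6.79% and 2.65% of barcodes were removed, shares set in advance by the number of barcodes and not measured. Without the mitochondrial limit 31 pairs of a member and a class passed 2-fold between the libraries, and with doublets kept 30, against 29 with the limits used. No share of all genes is set beside the counts of 31 and 30, so they do not show whether the members were affected. Nuclei fell into 24 clusters, named "-like" from marker genes, of which 15 came to more than 90% from 1 library and held 73.7% of all nuclei. Immature myonucleus-like nuclei thus came from different clusters in the 2 libraries. Myofibre-like nuclei shared only cluster 11 (384 and 58 nuclei), satellite-like nuclei only cluster 6 (998 and 637) and macrophage-like nuclei only cluster 15 (618 and 451). Each class carried its own markers, with none at 0. Levels are UMIs per 1000000 UMIs of a class (CPM), given as AHRfl/fl then AHRmKO. Free RNA from broken cells was estimated from 20 muscle markers in macrophage-like and endothelial-like nuclei together. The same estimate was used for every class of a library. It was 29.9% and 12.6% of UMIs with the RNA of barcodes of at most 100 UMIs. With that of barcodes of 200 to under 500 UMIs it was 18.7% and 18.3%. In AHRfl/fl endothelial-like nuclei the immature and myofibre markers summed to 3177 and 1309 CPM, against 1590 and 630 CPM in macrophage-like nuclei. Both estimates can therefore be too low for endothelial-like nuclei. The CPM that these estimates give is set beside the levels of the members and of the further pathway genes named. The phrase "above free RNA" means that the lower 95% bound of a level exceeds the higher of both estimates. Ahr stood at 5.86 and 4.82 CPM in myofibre-like nuclei (11 and 9 UMIs) and at 30.8 and 34.6 CPM over all nuclei. Counts from the 3′ end of the RNA need not touch the deleted part, so these levels do not check the labels.

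Igf1 RNA came mainly from macrophage-like nuclei in both libraries. These nuclei held 5740 of 10008 Igf1 UMIs in the AHRfl/fl library, or 57.4% (exact 95% interval 56.4 to 58.3), and 2754 of 3824, or 72.0% (70.6 to 73.4), in the AHRmKO library. The same nuclei held 31.4% and 32.4% of all UMIs, so Igf1 was concentrated there. With only nuclei of 4000 or more UMIs the AHRfl/fl share was 32.8%, and with each nucleus classed by its own marker UMIs in place of its cluster the shares were 39.0% and 21.1%. The level in macrophage-like nuclei was 259 CPM (253 to 266) and 263 CPM (253 to 273), a log2 ratio of 0.02 (interval -0.05 to 0.09), although different clusters supplied most of them. Adipocyte-like nuclei had 240 and 185 CPM and fibroblast-like nuclei 159 and 142 CPM. In the AHRfl/fl library the macrophage-like and adipocyte-like intervals overlapped, and in the AHRmKO library the adipocyte-like and fibroblast-like ones did. Immature myonucleus-like nuclei had 72.7 and 45.7 CPM, satellite-like nuclei 38.4 and 16.3 CPM, and myofibre-like nuclei 35.7 and 24.1 CPM. Free RNA would give 24.6 to 34.3 CPM and 9.95 to 16.7 CPM, so the satellite-like and myofibre-like levels lay near it.

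**Figure D1:**
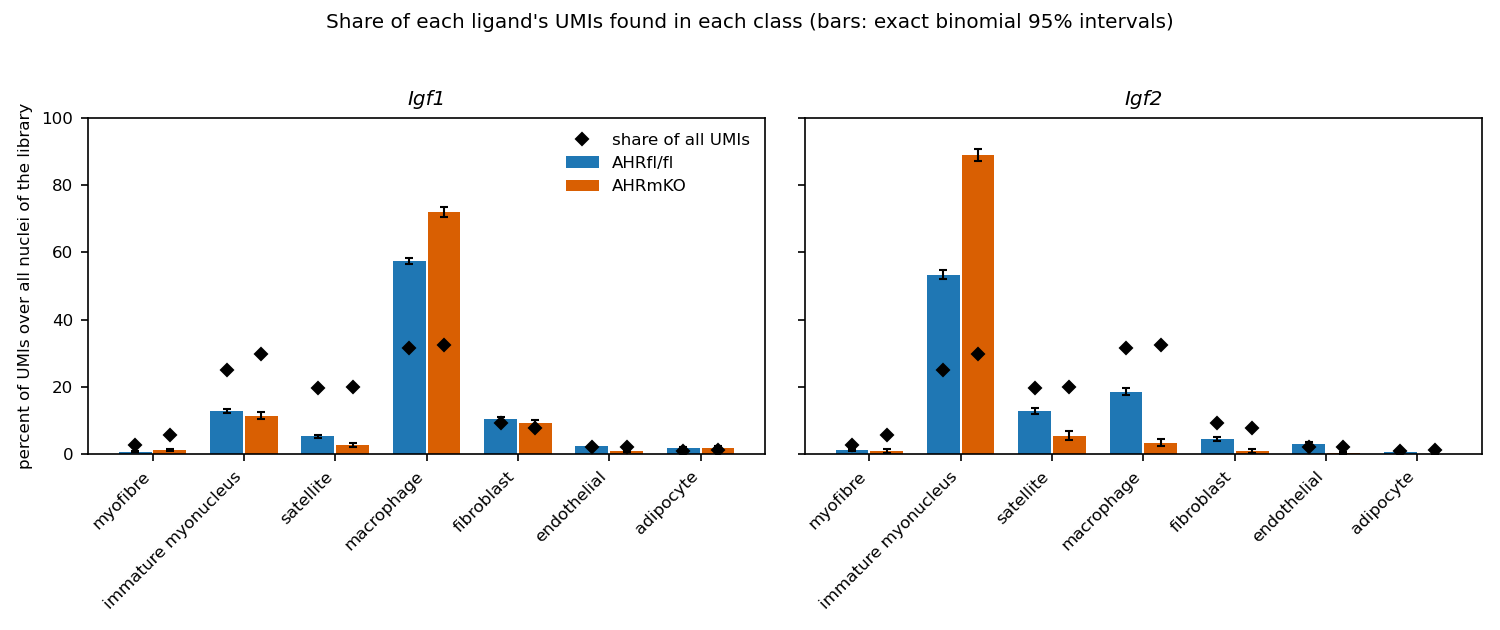
Percent of a library's Igf1 (left) and Igf2 (right) UMIs found in each class, AHRfl/fl in blue and AHRmKO in orange, with exact binomial 95% intervals as error bars and black diamonds for the class's share of all UMIs. Macrophage-like nuclei held 57.4% and 72.0% of Igf1, and immature myonucleus-like nuclei 53.3% and 88.8% of Igf2, each above the diamond.

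Endothelial-like nuclei were the only class above free RNA in both libraries whose Igf1 level differed by more than 2-fold. The AHRfl/fl level was 156 CPM (232 UMIs) and the AHRmKO level 50.3 CPM (37 UMIs), which is a log2 ratio of -1.63 (-2.18 to -1.13). Summed macrophage markers, all 10 detected, moved with it. They stood at 2126 and 740 CPM in endothelial-like nuclei, compared with 4371 and 2473 CPM in macrophage-like nuclei. The 9 fibroblast markers, none at 0, also moved with it, at 1389 and 431 CPM, as did the immature list, at 3177 and 430 CPM. The part of macrophage, fibroblast or immature RNA in the Igf1 difference was not tested.

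Igf1 was not even across the macrophage-like clusters. In the AHRfl/fl library the lowest level, 52.3 CPM (31.5 to 81.6, 19 UMIs), was in cluster 20 (110 nuclei), led by interferon-response genes such as Rsad2 and Cxcl10. That level was not above free RNA, which would give up to 34.3 CPM. Cluster 0 had 155 CPM, the cycling cluster 15 248 CPM and cluster 1 276 CPM. Cluster 2, led by F13a1, Mrc1 and Cd163, genes of resident-type macrophages, had 302 CPM (286 to 318). The highest level was 365 CPM (344 to 388) in cluster 3 (839 nuclei), whose leading genes included Mmp12, an elastase, Atp6v0d2, a subunit of the lysosomal proton pump, and Il7r. The intervals of clusters 1 and 2 overlapped, and those of clusters 0, 2 and 3 did not. In the AHRmKO library, cluster 22 had 240 CPM. Cluster 15 held nuclei of both libraries, 618 and 451, at 248 and 281 CPM. The receptors were arranged differently from each other. Igf1r ranged among AHRfl/fl nuclei from 74.3 CPM in cluster 20 to 188 CPM in cluster 2. Igf2r was highest in cluster 3 at 392 CPM and lowest among AHRfl/fl nuclei in cluster 2 at 118 CPM. Neither of the lowest levels was above free RNA. Their lower bounds were 48.9 CPM for Igf1r and 108 CPM for Igf2r, where free RNA would give up to 64.7 and 122 CPM.

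**Figure D2:**
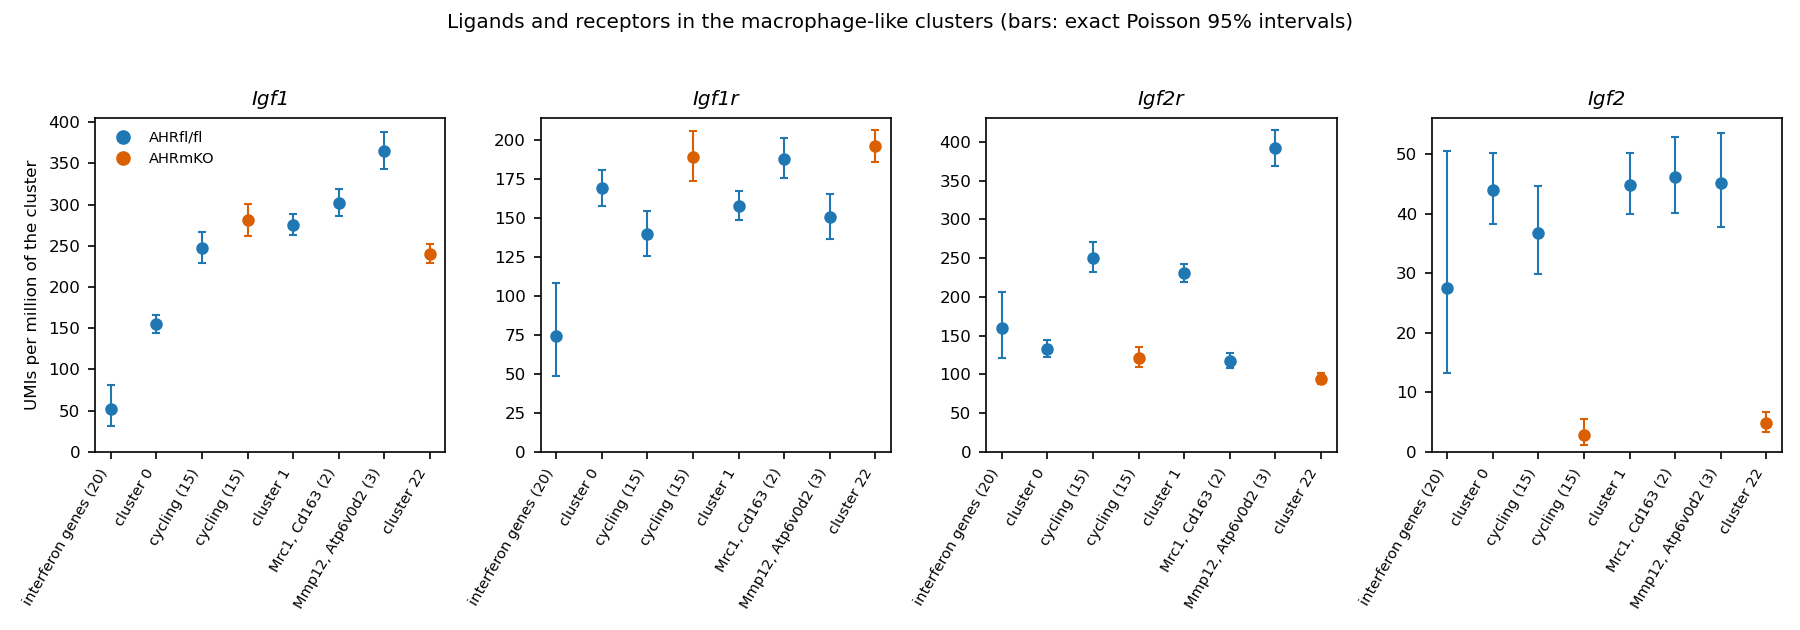
CPM of Igf1, Igf1r, Igf2r and Igf2 in each macrophage-like cluster (number in parentheses), AHRfl/fl in blue and AHRmKO in orange, with exact Poisson 95% intervals. Igf1 runs from 52.3 CPM in the interferon cluster, a level not above free RNA, to 365 CPM in the Mmp12 cluster. Igf2 is at 27.5 to 46.2 CPM in all AHRfl/fl clusters and at 2.80 and 4.88 CPM in the AHRmKO ones, none of them above free RNA.

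Igf2 RNA lay mostly in the muscle lineage. Satellite-like, immature and myofibre-like nuclei together held 67.4% of its UMIs (66.1 to 68.7, 3495 of 5185) in the AHRfl/fl library. In the AHRmKO library they held 95.3% (94.0 to 96.4, 1179 of 1237). The same nuclei held 47.4% and 55.4% of all UMIs. Of the AHRfl/fl Igf2 UMIs, 664 were in satellite-like and 66 in myofibre-like nuclei, at levels not above free RNA. Most Igf2 UMIs of the lineage were in immature myonucleus-like nuclei, which express the embryonic myosin Myh3. Their level was 157 CPM (151 to 163) and 114 CPM (108 to 121), a log2 ratio of -0.46. This was the only class in which Igf2 was above free RNA in both libraries. Free RNA would give 38.6 to 46.0 CPM in the AHRfl/fl library and 5.63 to 6.78 CPM in the other.

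In each library Igf2 was higher in the immature cluster with more adult myosin. The name immature is a loose one for these clusters. Of the 10 immature and the 10 myofibre markers, cluster 5 raised 4 and 5, cluster 9 raised 7 and 8, cluster 14 raised 6 and 9, and cluster 10 raised 8 and 6. Cluster 5 also raised 5 of 8 satellite markers. The myofibre marker Trdn was among the 10 leading genes of cluster 9, and no immature marker was among those of any of the 4. Values given for immature nuclei as a class are therefore sums of clusters 9 and 10 in the AHRfl/fl library and of clusters 5 and 14 in the AHRmKO library, with few other nuclei, and the ratios between them are not read as differences within 1 cell type. Among AHRfl/fl nuclei Igf2 was 95.4 CPM in cluster 10, where the adult myosin Myh4 stood at 100 CPM, and 175 CPM in cluster 9, where Myh4 stood at 680 CPM. Among AHRmKO nuclei it was 38.5 CPM in cluster 5 (Myh4 48.4 CPM) and 180 CPM in cluster 14 (Myh4 1244 CPM). The intervals of clusters 9 and 14 overlapped, and those of clusters 10 and 5 did not. In myofibre-like nuclei Igf2 was at 35.2 and 6.42 CPM, not above free RNA.

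The Igf2 intervals of the 2 libraries overlapped in no class, and outside immature nuclei most levels followed the free RNA of their library. Macrophage-like nuclei had 43.6 CPM (965 UMIs) and 4.11 CPM (43 UMIs), and fibroblast-like nuclei 34.3 and 4.38 CPM. Adipocyte-like nuclei had 45.8 CPM (34 UMIs) and no UMI, which is at least 5.87-fold lower against a floor of 3 UMIs in the class. Satellite-like nuclei had 47.8 and 10.5 CPM, of which only the second was above free RNA. Levels that were not above free RNA are not read as expression, nor the ratios between them as differences of these nuclei, and the part of free RNA in those ratios was not tested. The immature myonucleus markers, 10 in the list, moved the same way: macrophage-like nuclei held a sum of 1590 and 220 CPM, fibroblast-like nuclei 1169 and 178 CPM and adipocyte-like nuclei 876 and 174 CPM, the last with 1 of 10 at 0 in the AHRmKO library. Endothelial-like nuclei stood apart in the AHRfl/fl library with 105 CPM (156 UMIs), against 3 UMIs in the AHRmKO library (log2 ratio -4.53, interval -6.98 to -3.11). The first level was above the free RNA estimate, which can be too low for this class. The immature list summed to 3177 and 430 CPM there, and its part in the difference was not tested. H19, the imprinted noncoding RNA beside Igf2, was highest in the same immature nuclei, at 418 and 661 CPM.

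Igf1r was present in every class, with log2 ratios of -0.49 to 0.45 between the libraries. It was above free RNA (20.5 to 64.7 CPM and 24.4 to 43.1 CPM) in all 7 classes of both, and no class passed 2-fold. Satellite-like nuclei, marked by Pax7, had the highest level, 572 CPM (559 to 585) and 487 CPM (470 to 505). Fibroblast-like nuclei had 419 and 392 CPM and endothelial-like nuclei 332 and 454 CPM. In the AHRmKO library the satellite-like and endothelial-like intervals overlapped. Immature myonucleus-like nuclei had 236 and 264 CPM, macrophage-like nuclei 162 and 190 CPM, myofibre-like nuclei 160 and 191 CPM, and adipocyte-like nuclei 241 and 172 CPM. Within the muscle lineage of the AHRfl/fl library, Igf1r stood at 724 CPM in the Pax7-high satellite-like cluster 8 and 400 CPM in satellite-like cluster 4. It was 339 and 203 CPM in the immature clusters 10 and 9 and 160 CPM in the myofibre-like cluster 11. The AHRmKO nuclei gave 487 CPM in cluster 12, 324 in cluster 5, 213 in cluster 14 and 198 in cluster 23.

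Igf2r was lower in the AHRmKO library in every class and was above free RNA (40.6 to 122 CPM and 15.8 to 17.4 CPM) in all 14 class and library sums. Myofibre-like nuclei had 598 CPM (564 to 634; 1122 UMIs) and 60.5 CPM (49.8 to 72.7; 113 UMIs), a 9.89-fold difference with a counting interval of 8.15 to 12.1. Immature myonucleus-like nuclei had 614 and 154 CPM, satellite-like nuclei 579 and 151 CPM, and fibroblast-like nuclei 549 and 209 CPM. Endothelial-like nuclei had 251 and 96.5 CPM and adipocyte-like nuclei 177 and 36.4 CPM. Macrophage-like nuclei had 209 and 106 CPM, a log2 ratio of -0.97, under 2-fold. With the free RNA of barcodes of at most 100 UMIs subtracted, the macrophage-like ratio was -0.27. By cluster, Igf2r was at 734 and 586 CPM in the AHRfl/fl nuclei of immature clusters 10 and 9 and at 173 and 136 CPM in the AHRmKO nuclei of clusters 5 and 14. Inside clusters that held nuclei of both libraries the log2 ratio was -1.69 in the cycling satellite-like cluster 6 and -2.10 in myofibre-like cluster 11. It was -1.04 in the cycling macrophage-like cluster 15, at 251 and 122 CPM. Free RNA would give up to 122 and 17.4 CPM of Igf2r, and its part in the cluster 15 ratio was not tested. Barcodes of 200 to under 500 UMIs likewise had 217 and 86.5 CPM of Igf2r. In myofibre-like nuclei marker sums moved as well: the 10 immature markers stood at 1448 and 215 CPM, the 9 fibroblast markers at 701 and 204 CPM and the 10 myofibre markers at 9390 and 24521 CPM, with none at 0. The immature list was also lower in the AHRmKO library in the other classes with an Igf2r call outside its own, at 1512 and 494 CPM in satellite-like nuclei and as given above in fibroblast-like, endothelial-like and adipocyte-like nuclei. The 10 macrophage markers stood at 850 and 206 CPM in satellite-like nuclei and at 693 and 166 CPM in immature nuclei. They were lower in the AHRmKO library in the other classes with an Igf2r call too: 892 and 413 CPM in myofibre-like, 1245 and 244 CPM in fibroblast-like and 1412 and 424 CPM in adipocyte-like nuclei, and in endothelial-like nuclei as given for Igf1. The part of these markers in the Igf2r differences was not tested.

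Airn, the imprinted noncoding RNA that silences the paternal Igf2r allele outside neurons, did not follow Igf2r in one direction. Immature nuclei had 1757 and 2206 CPM of Airn, satellite-like nuclei 1652 and 1700 CPM, and macrophage-like nuclei 547 and 1125 CPM. Fibroblast-like nuclei had 1832 and 2983 CPM and myofibre-like nuclei 2396 and 1208 CPM. Since the genes overlap on opposite strands, a difference in how reads of the shared 28354 bases were assigned cannot be told apart from a difference in Igf2r RNA.

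**Figure D3:**
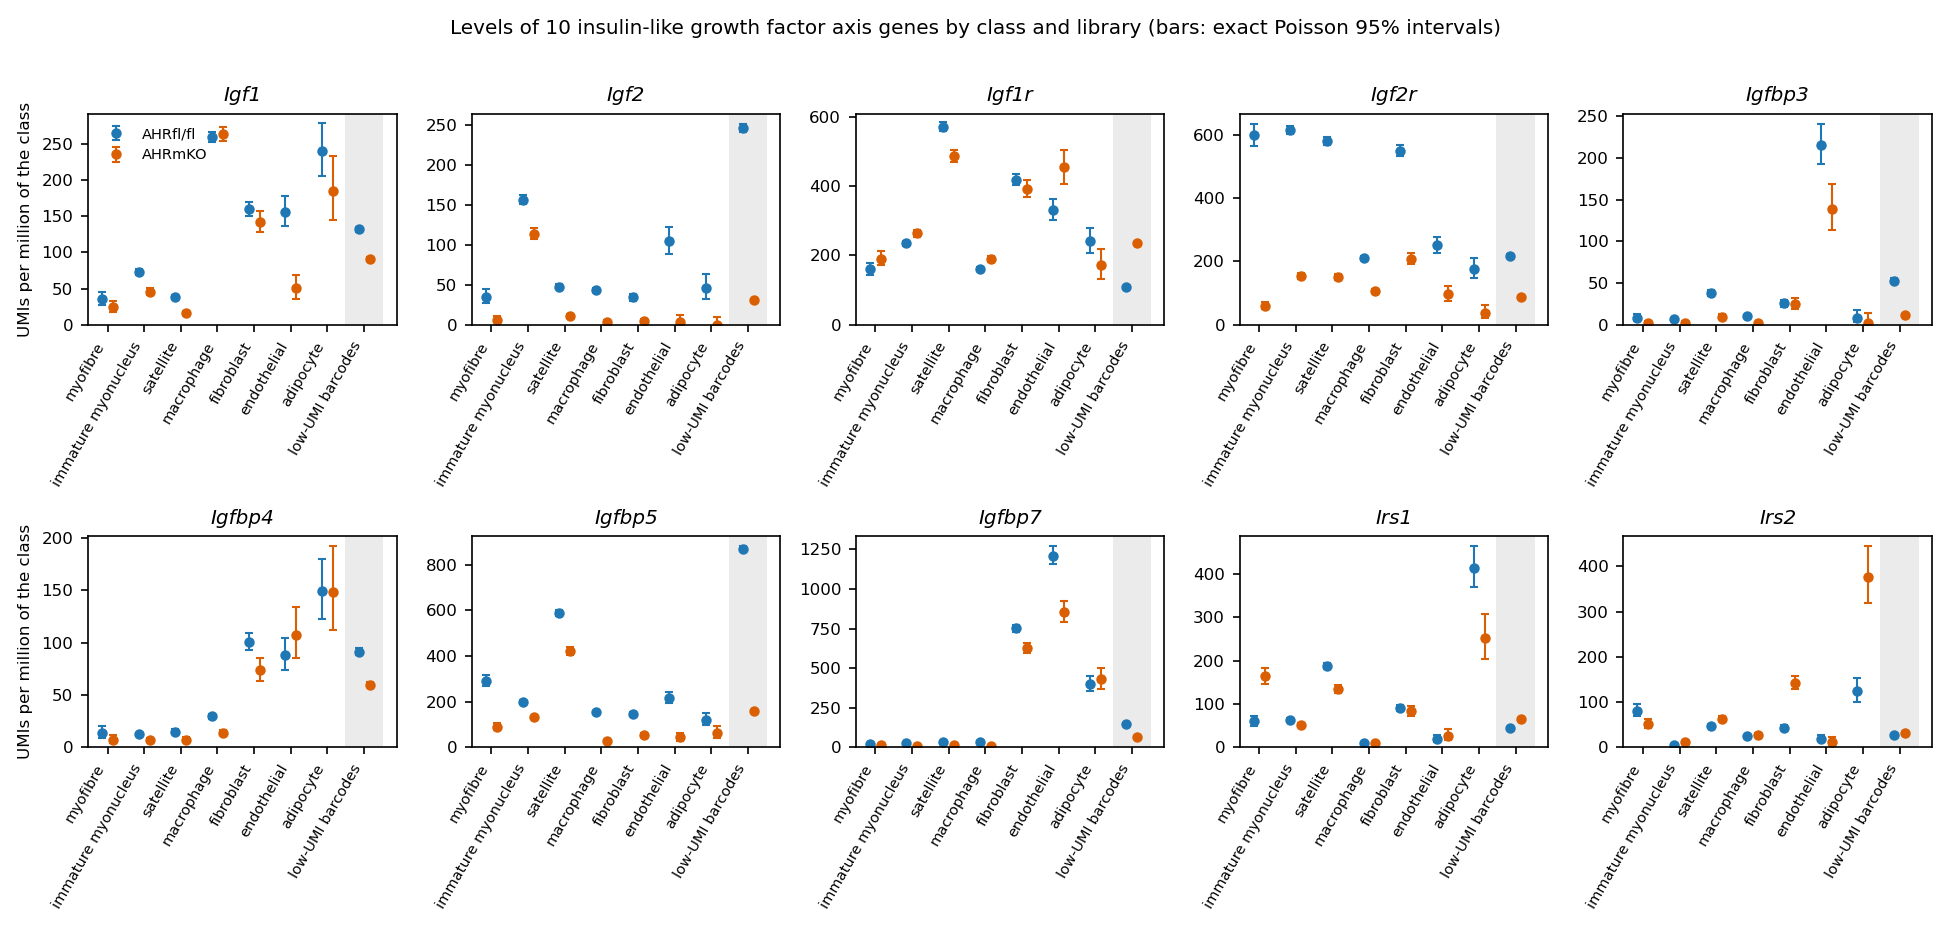
CPM of each of the 10 genes in 7 classes and, shaded, in barcodes of 200 to under 500 UMIs, AHRfl/fl in blue and AHRmKO in orange, with exact Poisson 95% intervals. Igf1 peaks in macrophage-like, Igf2 in immature, Igf1r and Igfbp5 in satellite-like, Igfbp3 and Igfbp7 in endothelial-like and Irs1 in adipocyte-like nuclei of both libraries, and Igf2r is lower in the AHRmKO library in all 7 classes.

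The binding proteins were highest in vessel, fat or muscle precursor nuclei. Igfbp7, which binds IGFs weakly and lies in vessel basement membranes, had 1212 and 857 CPM in endothelial-like, 752 and 627 CPM in fibroblast-like and 402 and 432 CPM in adipocyte-like nuclei. The other 4 classes, at 20.8 to 35.8 CPM and 10.9 to 14.6 CPM, were not above free RNA (28.1 to 36.9 CPM and 10.1 to 12.5 CPM) in either library. Fibroblast-like nuclei, which outnumbered endothelial-like ones, held 53.9% and 56.0% of all Igfbp7 UMIs and endothelial-like nuclei 19.5% and 22.4%.

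Igfbp3, the main carrier of IGFs in blood, had 216 and 139 CPM in endothelial-like nuclei, a log2 ratio of -0.63. Fibroblast-like nuclei had 25.5 and 24.7 CPM. Satellite-like nuclei had 38.0 CPM (528 UMIs) and 9.76 CPM (63 UMIs), so that the log2 ratio was -1.91 (-2.36 to -1.58), with both levels above free RNA (7.22 to 9.90 CPM and 2.17 to 2.22 CPM). Within shared cluster 6 the log2 ratio was -1.76. Besides the immature and macrophage markers given above, the 9 fibroblast markers moved with it, at 1882 and 1332 CPM. The 10 endothelial markers, of the class with the highest Igfbp3, stood at 96.5 and 101 CPM in satellite-like nuclei. The part of these markers was not tested. The other 4 classes lay at or near free RNA, at 10.1 CPM or less.

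Igfbp4, an inhibitor of IGF action that is cleaved by the protease PAPP-A, was highest in adipocyte-like nuclei at 150 and 148 CPM. Fibroblast-like nuclei had 101 and 73.7 CPM and endothelial-like nuclei 88.3 and 107 CPM. In macrophage-like nuclei it was 29.5 and 13.7 CPM, a log2 ratio of -1.08, with both levels above free RNA (17.1 to 17.8 CPM and 5.23 to 10.96 CPM). This call was kept in 7 of 15 alternative settings, and within shared cluster 15 the log2 ratio was -0.57 (-1.15 to -0.02). The 9 fibroblast markers moved with it in macrophage-like nuclei, at 924 and 181 CPM in sum with none at 0. The 7 adipocyte markers, of the class with the highest Igfbp4, stood at 230 and 209 CPM there (none and 1 at 0). For the 10 endothelial markers the sums were 51.6 and 50.7 CPM. The part of these markers was not tested. Cluster 2 was the highest macrophage-like cluster, at 45.04 CPM.

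Igfbp5, the binding protein most associated with muscle precursors, had its highest level in satellite-like nuclei, 589 CPM (577 to 602) and 421 CPM (405 to 437). In the muscle lineage it was lower in immature nuclei, at 201 and 132 CPM, and stood at 292 CPM (547 UMIs) and 90.4 CPM (169 UMIs) in myofibre-like nuclei, a log2 ratio of -1.68. That ratio came from different clusters. Within cluster 11, which held 384 and 58 nuclei, Igfbp5 was at 293 and 303 CPM (log2 ratio 0.047, interval -0.34 to 0.41). The 461 AHRmKO nuclei of cluster 23 had 61.9 CPM. Igfbp5 was also among the more abundant free RNAs, at 870 and 158 CPM where barcodes held 200 to under 500 UMIs, which would give 163 to 170 CPM and 28.9 to 32.1 CPM. Macrophage-like nuclei, at 155 and 27.7 CPM, were not above that level in either library, and the part of free RNA in their difference was not tested. In endothelial-like nuclei 320 and 32 UMIs gave levels of 216 and 43.5 CPM (log2 ratio -2.30). Only the first was above the free RNA estimate, which can be too low for this class, so it is not read as expression. Fibroblast-like nuclei had 145 and 54.9 CPM, a log2 ratio of -1.40, of which only the second was above it.

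The adaptors peaked in adipocyte-like nuclei. Irs1 had 415 CPM (370 to 464) and 252 CPM (205 to 308) there. Satellite-like nuclei had 187 and 134 CPM of it, and fibroblast-like nuclei 91.1 and 83.6 CPM. Macrophage-like nuclei, at 9.44 and 9.83 CPM, were not above free RNA in either library. Myofibre-like nuclei had 59.7 CPM (112 UMIs) and 165 CPM (308 UMIs), a 2.76-fold difference (interval 2.22 to 3.46). Here too the clusters differed. Within cluster 11 the levels were 56.3 CPM (105 UMIs) and 58.7 CPM (only 13 UMIs), a log2 ratio of 0.062 with a wide interval, -0.89 to 0.90. Cluster 23 had 179 CPM. Marker sums of the whole class were higher in the AHRmKO library too: the 10 myofibre markers as given for Igf2r, and the 5 erythroid markers at 200.5 and 1348 CPM with none at 0. The 7 adipocyte markers, of the class with the highest Irs1, stood at 43.7 and 44.9 CPM in myofibre-like nuclei (1 and 3 at 0). The part of these markers in the Irs1 difference was not tested.

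Irs2, which is induced by fasting signals and by FOXO factors, was more than 2-fold higher in the AHRmKO library, by the call rule, in 2 classes. Adipocyte-like nuclei had 124 CPM (100 to 152; 92 UMIs) and 377 CPM (318 to 444; 145 UMIs), a 3.04-fold difference (interval 2.33 to 3.99). Fibroblast-like nuclei had 43.5 CPM (38.6 to 48.8; 288 UMIs) and 143 CPM (129 to 159; 359 UMIs), a 3.29-fold difference (interval 2.81 to 3.85). In both classes the libraries shared a single cluster, and free RNA would give at most 9.13 CPM. Other marker sums differed in these classes as well. In adipocyte-like nuclei the macrophage list was lower in the AHRmKO library, as given for Igf2r, while the 5 mast cell markers stood at 22.9 and 98.9 CPM (4 and none at 0) and the 7 adipocyte markers at 3635 and 5221 CPM. The 10 myofibre markers stood at 431 and 802 CPM and the 8 pericyte or smooth muscle markers at 173 and 271 CPM there. In fibroblast-like nuclei the macrophage list was again lower, and the 9 fibroblast markers stood at 12530 and 8502 CPM. Higher there were the pericyte or smooth muscle list, at 545 and 786 CPM, and the 10 endothelial markers, at 98.8 and 142 CPM. The part of these markers in the Irs2 differences was not tested. Satellite-like nuclei had 47.7 and 63.2 CPM, macrophage-like nuclei 24.6 and 27.4 CPM, and endothelial-like nuclei 19.5 and 12.2 CPM. Myofibre-like nuclei had 81.0 and 51.9 CPM, but within cluster 11 the direction turned, to 81.4 and 131 CPM (log2 ratio 0.68, interval 0.06 to 1.27), and cluster 23 had 41.3 CPM. With each nucleus classed by its own markers the myofibre-like log2 ratio was 1.13. Immature nuclei had 6.24 CPM, not above free RNA, and 12.6 CPM, a 2.02-fold difference (interval 1.54 to 2.63) whose log2 ratio with 0.5 CPM added was 0.96 and so was not called.

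**Figure D4:**
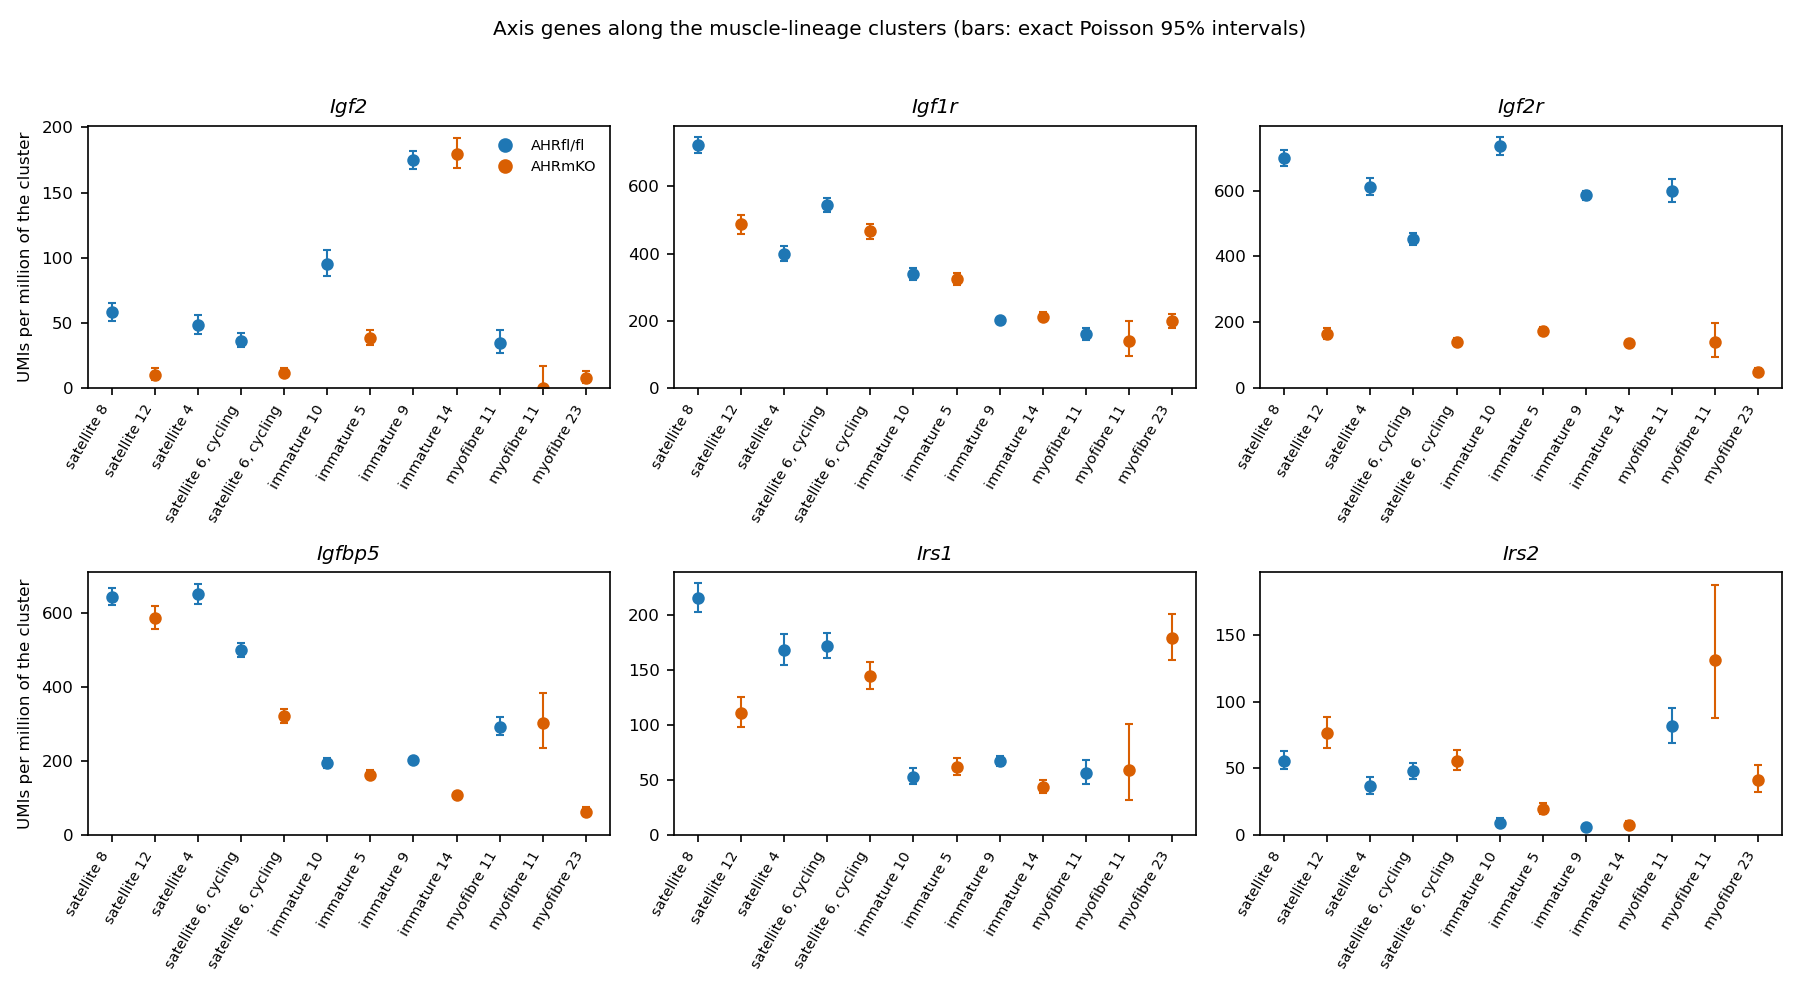
CPM of 6 genes in the muscle-lineage clusters, ordered from satellite-like through immature to myofibre-like, AHRfl/fl in blue and AHRmKO in orange, with exact Poisson 95% intervals. Igf1r is 724 CPM in cluster 8 and 160 CPM in the AHRfl/fl nuclei of cluster 11, Igf2 is highest in immature clusters 9 and 14 at 175 and 180 CPM, and Igfbp5 and Irs1 of the AHRmKO library differ between clusters 11 and 23.

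Across the 70 pairs of a member and a class, 68 held 20 or more UMIs, and 29 passed 2-fold with a counting interval that left out no difference. Of these, 26 were lower and 3 were higher in the AHRmKO library. Among all genes tested by the same rule, 27.3% passed in myofibre-like nuclei, where 4 of 9 members did. In immature nuclei it was 24.1% of genes and 3 of 10 members, in satellite-like nuclei 21.6% and 6 of 10, in macrophage-like nuclei 21.4% and 5 of 10, and in fibroblast-like nuclei 23.3% and 4 of 10. In endothelial-like nuclei it was 20.9% and 4 of 10, and in adipocyte-like nuclei 21.1% and 3 of 9. Over all nuclei 17.9% of genes passed, and 2 of 10 members, both lower. Lower calls made up most of the background too, at 13.2% to 17.8% of genes per class. Higher calls were 9.99% of genes in myofibre-like, 8.14% in immature, 5.45% in satellite-like, 3.67% in macrophage-like, and 5.83% in fibroblast-like nuclei, with 1, 0, 0, 0 and 1 members. For endothelial-like nuclei the share was 5.36% with 0 members and for adipocyte-like nuclei 7.83% with 1. Higher calls were 4.08% of genes over all nuclei, with 0 members. In barcodes of 200 to under 500 UMIs they were 9.75%, with 1 member. The members' median log2 ratio ran from -1.09 in satellite-like to -0.21 in fibroblast-like nuclei, beside -0.09 to -0.01 over all genes tested. It was the same with Igf2 in adipocyte-like nuclei at its bound.

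The 29 differences were then set beside free RNA. In 13 pairs the level was above free RNA in both libraries, in 5 it was so in 1 library, and in 11 it was so in neither. Of the 41 pairs that were not called, 30 were above free RNA in both. The 13 were Igf2r in 6 classes, Igf1 in endothelial-like, Igfbp3 in satellite-like, Igfbp4 in macrophage-like and Igfbp5 in myofibre-like nuclei, all lower in the AHRmKO library, and Irs1 in myofibre-like and Irs2 in adipocyte-like and fibroblast-like nuclei, all higher. The 5 were Igf1 and Igf2 in satellite-like, Igf2 and Igfbp5 in endothelial-like and Igfbp5 in fibroblast-like nuclei. The 11 were Igf2 in macrophage-like, fibroblast-like, adipocyte-like and myofibre-like nuclei, Igfbp3 in immature and macrophage-like nuclei, Igfbp4 in satellite-like nuclei, Igfbp5 in macrophage-like nuclei, and Igfbp7 in immature, satellite-like and macrophage-like nuclei. This sorting was chosen after the data had been seen, and its free RNA estimate can be too low for endothelial-like nuclei. In the AHRfl/fl library it can be too high for fibroblast-like and adipocyte-like nuclei. Their immature markers summed to 1169 and 876 CPM in that library, against 1590 CPM in macrophage-like nuclei.

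**Figure D5:**
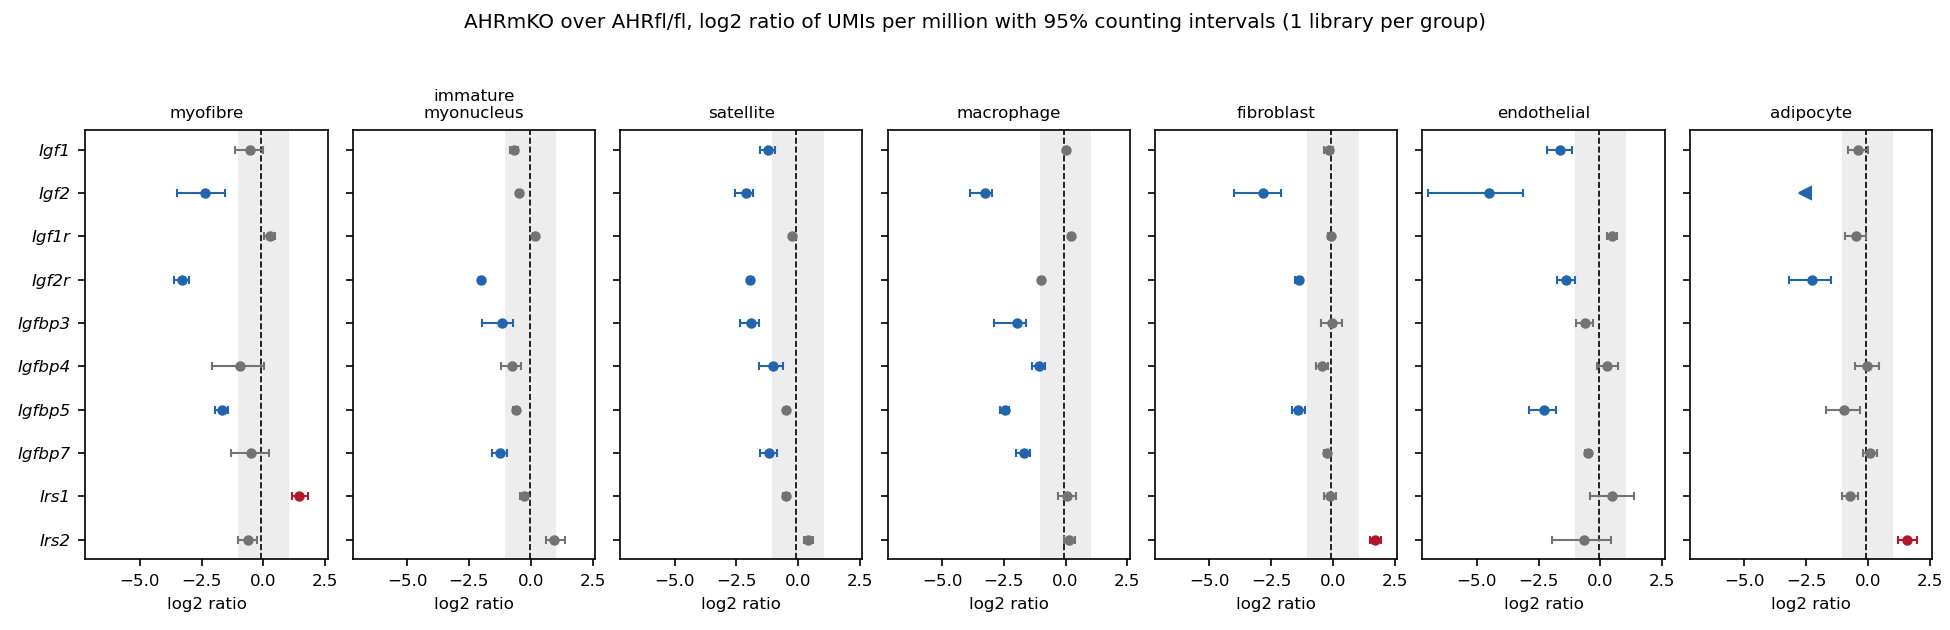
Log2 ratio of CPM, AHRmKO over AHRfl/fl, for each gene and class with 95% counting intervals; blue marks calls lower and red calls higher in the AHRmKO library, grey no call. The grey band is under 2-fold, the dashed line is the median of all genes tested, the arrowhead is the bound for Igf2 without a UMI, and pairs under 20 UMIs are left out.

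Of 47 further genes of the pathway, 34 held enough UMIs in myofibre-like nuclei, where 2 passed 2-fold as higher and 6 as lower, beside 27.3% of all genes. In immature nuclei 3 were higher and 4 lower of 39 (24.1% of all genes), and in satellite-like nuclei 2 and 3 of 38 (21.6%). Macrophage-like nuclei had 1 and 6 of 37 (21.4%) and fibroblast-like nuclei 3 and 6 of 37 (23.3%). Endothelial-like nuclei had 3 and 3 of 33 (20.9%), and adipocyte-like nuclei 1 and 1 of 29 (21.1%). Their median log2 ratios, -0.12 to 0.14, lay near those of all genes.

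Igf2bp3, a fetal RNA-binding protein that binds Igf2 mRNA, was among the 3 largest called differences of these 47 genes in 6 of the 7 classes. Free RNA would give it 0.867 to 7.90 CPM in the AHRfl/fl library and 0.716 to 0.834 CPM in the other. The AHRfl/fl levels in these 6 classes, 14.3 to 37.3 CPM, were higher than that. It stood at 37.3 CPM (70 UMIs) and 0.535 CPM (1 UMI) in myofibre-like nuclei, and at 14.3 and 3.22 CPM in immature nuclei. Satellite-like nuclei held 463 and 42 UMIs of it. In endothelial-like nuclei 34 UMIs stood against none, at least 5.62-fold lower in the AHRmKO library. The intervals of these log2 ratios were -11.4 to -3.60 in myofibre-like nuclei and -2.85 to -1.90 in satellite-like nuclei. Among proteases that cleave binding proteins, Pappa had 24.8 and 5.27 CPM in satellite-like nuclei and Htra1 34.7 and 4.82 CPM in myofibre-like nuclei. Adam12, of the same group, was higher in endothelial-like nuclei, at 154 and 349 CPM (log2 ratio 1.18), and was named after its values were seen. Free RNA would give Pappa at most 4.90 and 3.23 CPM, Htra1 at most 3.03 and 0.774 CPM and Adam12 at most 31.5 and 27.4 CPM.

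Among further carriers of IGFs, Igfals, the acid-labile subunit of the circulating complex, had 67 and 3 UMIs in satellite-like nuclei (log2 ratio -2.46, interval -5.69 to -1.77). Igfbp6, which prefers IGF2, had 169 and 4 UMIs in macrophage-like nuclei (-3.21, interval -6.21 to -2.94), where the AHRfl/fl level of 7.63 CPM was not above free RNA (7.63 to 8.24 CPM). In fibroblast-like nuclei it stood at 25.1 and 7.17 CPM, above free RNA in both libraries. Igfbp2 had 22 UMIs and none in fibroblast-like nuclei, at least 2.78-fold lower in the AHRmKO library, and 108 and 9 UMIs in macrophage-like nuclei. Neither AHRfl/fl level, 3.32 and 4.88 CPM, was above free RNA (3.54 to 5.53 CPM). In immature nuclei Igfbp2 had 7.77 and 2.39 CPM. Grb14, an adaptor that inhibits the insulin receptor, had 6 and 29 UMIs in myofibre-like nuclei. H19 had 266 and 53.0 CPM in endothelial-like nuclei, of which only the first was above free RNA (107 to 143 CPM and 30.4 to 41.8 CPM). The immature markers summed to 3177 and 430 CPM there, and their part was not tested. Pik3cb, a catalytic subunit of phosphoinositide 3-kinase, had 76.8 and 33.8 CPM in adipocyte-like nuclei. Free RNA would give Igfals at most 0.107 and 0.226 CPM, Grb14 at most 0.272 and 0.418 CPM and Pik3cb at most 20.4 and 13.9 CPM.

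Of the next values, those of Tsc2 in immature nuclei and of Shc1 in endothelial-like and adipocyte-like nuclei were among the 3 largest of their class, and the others were named after their values were seen. Higher in the AHRmKO library were Tsc2, which restrains mTOR, at 18.6 and 61.1 CPM in immature nuclei (satellite-like 20.2 and 53.6, fibroblast-like 13.7 and 39.4), and Shc1, an adaptor towards the MAP kinases, at 20.3 and 46.4 CPM in immature nuclei (fibroblast-like 33.2 and 96.4, endothelial-like 22.2 and 61.2, adipocyte-like 28.3 and 67.7). Pik3r2, a regulatory subunit of phosphoinositide 3-kinase, had 14.2 and 36.5 CPM in immature nuclei. Insr, the insulin receptor, had 149 and 321 CPM in myofibre-like nuclei, where Eif4ebp1, a translation inhibitor downstream of mTOR, had 83.7 and 34.8 CPM. Free RNA would give Tsc2 at most 9.26 and 6.62 CPM, Shc1 at most 8.45 and 5.06 CPM and Pik3r2 at most 9.40 and 3.73 CPM. For Insr it would give at most 33.5 and 21.6 CPM, and for Eif4ebp1 at most 20.3 and 3.73 CPM.

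Over the 14 sums of 7 classes in 2 libraries, the genes with the most similar levels were found by Pearson's r among 16070 genes, as a description without a test, since the sums share libraries and depth. For Igf1 they were Rab32 (r = 0.93), Hrh2 (0.93) and Igf1os (0.93). For Igf2 they were Acta2 (0.97), an actin of smooth muscle, Tspan3 (0.96) and the perinatal myosin Myh8 (0.95). For Igf1r they were Chic1 (0.96), Sulf1 (0.94), a heparan sulphate sulphatase, and Dtnb (0.93), and for Igf2r Gm49959 (0.95), Gm15991 (0.92) and Gm47271 (0.92). For Igfbp3 they were Ramp2 (0.95), Tm4sf1 (0.95) and Rflnb (0.94), for Igfbp4 Col15a1 (0.98), Trpm3 (0.95) and Gm4951 (0.95), and for Igfbp5 Serbp1 (0.92), Bri3bp (0.91) and Areg (0.89). For Igfbp7 they were the collagen receptor subunit Itga1 (0.98), the basement membrane collagen Col4a1 (0.97) and Meox2 (0.97), for Irs1 Lrig1 (0.97), Maob (0.95) and 6030443J06Rik (0.94), and for Irs2 Pnrc1 (0.91), Trp53bp2 (0.89) and Entpd5 (0.89).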

How the data were processed

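Single-nucleus libraries were made with 10x Genomics Chromium 3′ HT v3.1 reagents, per the labels. For every barcode the authors deposited unnormalised counts of UMIs for each gene. The submitters' processing notes name Cell Ranger 7.0.1 and mm10, while the file headers name Cell Ranger 4. The annotation, the use of intronic reads and of strand are not given in the sources used here. Barcodes with at least 2000 UMIs, 200 genes and at most 5% mitochondrial UMIs were kept (16986 and 6630). The barcodes with the highest Scrublet doublet scores were left out, at a preset 0.4% per 1000 barcodes, 1154 and 176. Both libraries were clustered together (2000 variable genes without the members, 30 components, 15 neighbours, Leiden resolution 0.8; scanpy 1.11.5, Python 3.11.15). A cluster was named where at least 3 markers were 2-fold above their median elsewhere, after adding 10 CPM. It took the list with the largest share of markers raised, but a muscle cluster with 3 or more immature markers raised was named immature even where it raised more of another muscle list. Naming thresholds were set after seeing the data, and names rebuilt from markers can differ from the authors'. Clusters 16 and 19 (660 and 33 nuclei) stayed unnamed.

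Counts were summed per class and library. Levels have exact Poisson intervals and shares exact Clopper-Pearson intervals at 95%. Log2 ratios have 0.5 CPM added, which understates the change of low genes, with exact conditional binomial intervals. A pair was called at 2-fold with an interval excluding 0 and 20 or more UMIs. The call was tested on simulated Poisson counts of 32285 genes per class, 200 of them changed 4-fold: 199 or 200 were recovered, and 17 to 127 unchanged genes were called in 6 classes and 671 in myofibre-like nuclei. The 4-fold rises came back at a median log2 ratio of 1.45 in myofibre-like nuclei and 1.93 to 1.97 elsewhere. Poisson counts hold no variation between mice, libraries or clusters, so these false calls do not speak for the shares of genes called in the data. All 10 members are named, with the up to 3 further pathway genes per class that had the largest called ratios, and a few beyond these chosen after their values were seen. The members and lists were chosen with earlier results of these data known. The 14 other settings tried concern UMI, mitochondrial and doublet limits, clustering, classification, depth, totals and free RNA. 1 more, chosen after seeing the data, kept only clusters with 50 or more nuclei of each library.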

Additional observations from a re-analysis of the deposited data

Results flagged for a closer look

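In barcodes of 200 to under 500 UMIs, which enter no class of nuclei and served for a free RNA profile, Igf1r stood at 110 CPM (3634 UMIs) in the AHRfl/fl library and at 236 CPM (11243 UMIs) in the AHRmKO library, a log2 ratio of 1.10. It drew attention because the signal in barcodes outside the classes was above that of the control library, while no class of nuclei passed 2-fold for this gene. In the same barcodes 5 of the 10 members were lower in the AHRmKO library and 1 was higher, beside 24.7% and 9.75% of all genes.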

How the results depend on the processing

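No paired analysis was possible because each group has 1 library. Of the 70 pairs of a member and a class, 23 to 33 were called under the alternatives, against 29. No share of all genes called is set beside the counts of the alternatives. Igf2r stayed lower by more than 2-fold in myofibre-like, satellite-like, fibroblast-like, endothelial-like and adipocyte-like nuclei in 15 of 15 alternatives and in immature nuclei in 14 of 14, and Irs2 stayed higher in adipocyte-like and fibroblast-like nuclei in 15 of 15. Signs turned when free RNA was subtracted, for 7 of the 29 called pairs with the lower barcodes and 4 with the higher, and for 9 and 7 of the 41 pairs not called, up to 6.12 and 6.34 (Igfbp5 in adipocyte-like nuclei). Levels were cut at 0 after subtraction. Where the AHRfl/fl level fell to 0, the size of a ratio rests on the 0.5 CPM added and is not a measured change. Igfbp5 in fibroblast-like and adipocyte-like nuclei is such a case, with 145 and 121 CPM in the AHRfl/fl library against 163 to 170 CPM subtracted. The called pairs whose sign turned follow. With the profile of barcodes of at most 100 UMIs the log2 ratio became 1.14 for Igfbp3 and 1.55 for Igfbp7 in immature nuclei, 0.32 for Igf1, 2.40 for Igfbp4 and 3.48 for Igfbp7 in satellite-like nuclei, 1.51 for Igfbp7 in macrophage-like nuclei and 5.72 for Igfbp5 in fibroblast-like nuclei. With that of barcodes of 200 to under 500 UMIs it became 1.54 for Igf2 in myofibre-like, 1.11 for Igfbp3 in immature, 1.24 for Igf2 in satellite-like and 5.99 for Igfbp5 in fibroblast-like nuclei. With only clusters holding 50 or more nuclei of each library, chosen after seeing the data, it was 0.047 for Igfbp5 in myofibre-like nuclei.

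The percent of Igf1 UMIs in macrophage-like nuclei and of Igf2 UMIs in the muscle lineage moved by more than its counting interval in 10 of 14 alternatives for each gene in the AHRfl/fl library, and in 9 (Igf1) and 7 (Igf2) in the AHRmKO library. In the AHRfl/fl library, Igf1 then Igf2, it was 61.9 and 60.3 with a minimum of 1000 UMIs, 32.8 and 78.0 with 4000, 62.3 and 65.6 with no mitochondrial limit, 49.2 and 59.1 with doublets kept, and 56.4 and 69.6 with each library clustered on its own. It was 56.2 and 63.7 at Leiden resolution 1.6, 68.1 and 60.9 with nuclei thinned to 2000 UMIs, 65.6 and 88.3 or 62.8 and 94.1 with free RNA subtracted by the lower or the higher barcodes, and 39.0 and 60.7 with nuclei classed by their own markers. In the AHRmKO library, Igf1 was 74.2 with 1000 UMIs, 70.5 with 4000, 69.5 with no mitochondrial limit, 70.3 with doublets kept, 70.5 clustered on its own, 69.5 thinned, 75.7 or 78.5 with free RNA subtracted and 21.1 by own markers. Igf2 was 93.2 with 1000 UMIs, 93.5 with 4000, 93.8 thinned, 100 with either subtraction, 87.1 by own markers and 93.9 as a mean over nuclei. The cause was not tested.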

Other observations

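Cluster 19, left unnamed because more of its leading markers belonged to another class, held 96 AHRfl/fl and 32 AHRmKO nuclei, with Itgbl1, Thbs4 and Slit3 among the leading genes. Its AHRfl/fl nuclei had 600 CPM of Igfbp5 (528 to 678) and 642 CPM of Igfbp7 (568 to 724), beside 145 and 752 CPM in AHRfl/fl fibroblast-like nuclei. Cluster 16, left unnamed for high UMI counts and markers of another lineage, held 564 AHRfl/fl nuclei with 148 CPM of Igf1 and 350 CPM of Igf1r.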
